A study of Mus musculus with 3 samples.

Results

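Heat shock proteins, chaperonins and their cochaperones were followed through an RNA immunoprecipitation sequencing (RIP-seq) experiment on mouse embryonic stem cells of the CCE line, grown with LIF and without feeders; the labels name no other treatment. The members were the rows annotated as protein_coding whose symbol belongs to the Hsp, Dnaj, Cct2 to Cct8, Tcp1 or Bag1 to Bag6 families. They came to 43 transcripts of 37 genes, out of 6505 gene symbols with a protein_coding transcript in the tables. Nuclei had been isolated, and RNA was recovered with an antibody against Mettl3 (Mettl3 RIP) or against Zfp217 (Zfp217 RIP), beside an input library. Mettl3 catalyses the methylation of adenosines in RNA to m6A, and Zfp217 is a zinc finger protein found in chromatin complexes. There were 3 libraries, 1 of each kind, so no test between groups was possible and every fold compares single libraries. A control precipitation was not analysed here, and all 3 libraries came from the same line with no other genotype.

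Chaperones help other proteins to fold. HSP70 proteins bind and release unfolded stretches in a cycle driven by ATP; J proteins (Dnaj) bring them clients and start ATP hydrolysis, and nucleotide exchange factors such as the BAG and HSP110 proteins reset them. HSP90 acts later on clients that are partly folded, the ring-shaped chaperonin CCT folds actin and tubulin in the cytosol, and small heat shock proteins hold unfolded proteins in solution. Many of these genes are induced by heat or by unfolded protein in the endoplasmic reticulum, and many are also transcribed in unstressed, dividing cells.

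Each antibody had a table of FPKM values (fragments scaled by transcript length and by the depth of the library). A transcript was listed only when its RIP value was at least 1 FPKM and at least 1.5-fold above the input. Every listed member is therefore higher in the RIP by construction, and what varies is which members were listed, at what level and by what fold. The depth estimated from the low values was 9800000 fragments for the Mettl3 RIP, 7060000 for the Zfp217 RIP, and 6040000 or 5980000 for the input as given in the Mettl3 or Zfp217 table. Of 8 stem cell markers, 6 (Pou5f1, Nanog, Sox2, Klf4, Esrrb and Dppa4) were listed in each table, of 6 markers of differentiated derivatives none were, and of 4 fibroblast markers Vim was.

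Mettl3 and its partners methylate adenosines in short motifs of which GGACT is one of the commonest forms. Members on which the results below turn are shown by a coding stretch, where one exists. It surrounds their last GGACT that lies with its flanks inside a single coding exon. The capitals mark GGACT, and the coordinates and transcripts are those of GENCODE M21 (GRCm38), as are the gene positions given with the values.
Hspa5, chr2:34773884-34773924, plus strand: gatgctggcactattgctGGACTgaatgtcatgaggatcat
Tcp1, chr17:12923595-12923635, plus strand: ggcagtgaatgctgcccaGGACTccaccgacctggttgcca
Dnajb9, chr12:44206993-44207033, minus strand: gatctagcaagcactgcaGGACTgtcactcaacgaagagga
Dnajc13, chr9:104200469-104200509, minus strand: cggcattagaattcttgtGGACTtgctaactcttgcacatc
Bag4, chr8:25767983-25768023, minus strand: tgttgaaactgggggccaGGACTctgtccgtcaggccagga
The Bag1 transcript ENSMUST00000030125, which had the largest folds of the family with at least 1 FPKM in the input, has no GGACT in its 1295 bases. The Hspa13 transcript has 2 GGACT and that of Dnajc15 has 1, but none was counted as coding, so no stretch is shown for them. GGACT, read on the sense strand, was present in 86.7% of 30 member transcripts of the Mettl3 table, beside 88.7% of all 5593 protein_coding transcripts there. In the Zfp217 table it was in 81.5% of 27 members and in 84.4% of 4428. The median density was 0.92 matches per kilobase among members and 0.97 among all protein_coding transcripts of the Mettl3 table, and 1.003 and 1.03 in the Zfp217 table. Members thus carried the motif about as often as the other listed transcripts. A match is a description of letters and says nothing of methylation at that place.

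The subfamilies were listed to different extents. Of 89 annotated genes matching the rule, 30 (33.7%) had a protein_coding transcript in the Mettl3 table, where 21.3% of all annotated protein-coding genes did. For Zfp217, 27 of the 89 (30.3%) were listed, beside 17.3% of all genes. In each table the backgrounds include genes that may be silent in these cells. Together 37 genes (41.6%) were listed, beside 26.1% of all, with 20 of them in both tables, 10 for Mettl3 alone and 7 for Zfp217 alone. Those 20 were 66.7% of the members in the Mettl3 table and 74.1% of those in the Zfp217 table, beside 58.7% and 72.3% for all annotated protein-coding genes, with 12.5% of annotated genes listed in both. The tables share the input library, so no more is read from this overlap.

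J proteins made up most of the members. Of 45 annotated J protein genes, 20 (44.4%) were in the Mettl3 table and 17 (37.8%) in the Zfp217 table. Among DNAJC genes, the class defined by the J domain alone, 14 of 28 were listed for Mettl3 and 11 for Zfp217. Among DNAJB genes 5 of 13 were listed for Mettl3 and 6 for Zfp217, and of 4 DNAJA genes only Dnaja2 was, for Mettl3. The BAG cochaperones Bag1, Bag4 and Bag6 were in both tables, and Bag2, Bag3 and Bag5 in neither.

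The heat shock and chaperonin subfamilies, pooled, gave smaller shares. Over HSP90, HSP70, HSP110, small heat shock, mitochondrial chaperonin and CCT genes together, 6 of 35 (17.1%) were in the Mettl3 table and 7 (20%) in the Zfp217 table, close to the 21.3% and 17.3% of all genes. The pool was not uniform. CCT stood at 25% in the Mettl3 table and 37.5% in the Zfp217 table, and HSP110, with 3 genes, at 33.3% in each. HSP70 stood at 18.2% in each, and small heat shock proteins at 12.5% in each. No protein_coding transcript of the 3 genes with an Hsp90 symbol or of the mitochondrial chaperonin pair Hspd1 and Hspe1 was listed. Trap1, an HSP90 relative that the rule of names does not match, was listed for Zfp217 and is given below with the other chaperone genes. Of 11 HSP70 genes, Hspa5 and Hspa13 were listed, each in both tables. Of 8 CCT genes counted (Tcp1, Cct2 to Cct5, Cct6b, Cct7 and Cct8), Tcp1 and Cct3 were in both tables and Cct5 in the Zfp217 table. Cct6a was not among the 8. If the tables followed these limits alone, an unlisted transcript was under 1 FPKM in the RIP or under 1.5 times its input, and which of these held is not known. The difference between J proteins and the other subfamilies was not tested.

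**Figure D1:**
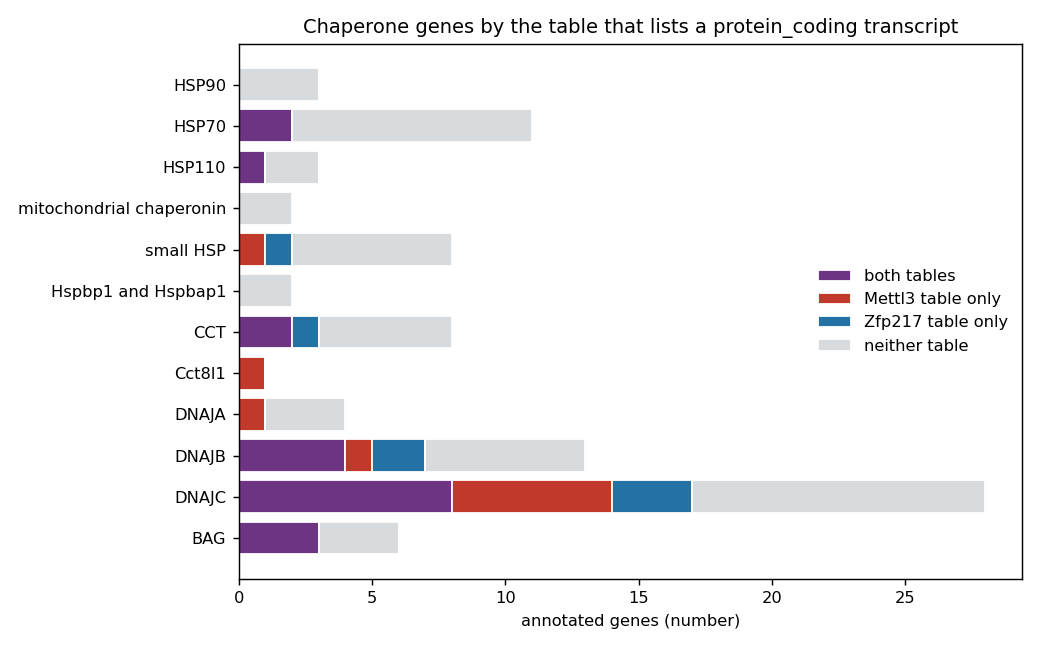
Number of annotated genes of each subfamily (horizontal axis) whose protein_coding transcripts were listed in both tables, in the Mettl3 table only, in the Zfp217 table only or in neither. DNAJC has 17 listed genes of 28, while all 3 genes with an Hsp90 symbol fall in the grey part.

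Several chaperone genes appeared only through other transcript classes. Protein_coding rows apart, 28 transcripts of the same families were listed, 18 of them annotated as retained introns, 7 as processed transcripts and 2 as targets of nonsense-mediated decay, with 1 transcribed pseudogene. Hsp90ab1 and Hsp90b1 (HSP90 of the cytosol and of the endoplasmic reticulum), Hspa8 and Hspa9 (constitutive HSP70 of the cytosol and of mitochondria), Hspa4, Hspa14, Dnaja1 and Dnajb11 were listed this way alone. A retained-intron transcript of Hsp90ab1, ENSMUST00000151306, was at 6.92 FPKM in the Zfp217 RIP, against 0 in the input. One of Hspa4, ENSMUST00000139322, was at 8.23 FPKM in the Zfp217 RIP, against 0 in the input. The Hspa14 transcript ENSMUST00000140494 and the Dnajb11 transcript ENSMUST00000133013, of other classes in the tables, are protein_coding in GENCODE M21. None of the rows of other classes enters the counts of members.

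Across the members, levels were low. RIP values ran from 1.05 to 36.6 FPKM with a median of 3.23 in the Mettl3 RIP, beside a median of 3.21 for all protein_coding transcripts. In the Zfp217 RIP they ran from 1.09 to 32.7 FPKM with a median of 2.41, beside 2.63. The input was listed at 0 FPKM for 10 of 32 members in the Mettl3 table (31.2%) and for 9 of 29 in the Zfp217 table (31.0%), beside 22% and 29.7% of all protein_coding transcripts. No fold is given for those. Another input, that of Dnajc21 (a J protein of ribosome biogenesis), was above 0 but under 0.01 FPKM in both tables. Only 2 of the members with a known length, Cct8l1 and Dnajc3, belong to genes with 1 annotated transcript. For the others the FPKM also depends on how reads were shared out among transcripts, which no interval here covers.

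With 1 FPKM added to each value and a mean FPKM of at least 1, 12 of 22 members (54.5%) reached 2-fold for the Mettl3 RIP over its input, beside 48.4% of 4954 protein_coding transcripts and 51.1% of transcripts of every class. The median log2 ratio was 1.03 for the members and 0.98 for all. For the Zfp217 RIP it was 10 of 22 (45.5%), beside 45.2% of 3646 protein_coding transcripts and 49.1% of every class, with medians of 0.91 and 0.91. Counts for the family as a whole were near those of other listed transcripts, but they were in part fixed by the filter. A transcript with an input of 0 that passes it reaches 2-fold by construction, among members and background alike. With an input of at least 0.01 FPKM, 9 of 19 members (47.4%) reached 2-fold for Mettl3 and 5 of 17 (29.4%) for Zfp217. The shares over all transcripts at that setting are not given here. Among members with at least 1 FPKM in the input, 6 of 12 (50%) reached 2-fold on the same scale for Mettl3 and 4 of 11 (36.4%) for Zfp217, beside 34.5% and 20.7% of all such transcripts.

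Counting error was described by exact 95% intervals of the fold, from estimated fragments. For Mettl3, 16 of 20 member intervals lay above 1, beside 88.9% of all protein_coding transcripts with an interval, and for Zfp217, 13 of 17, beside 78.1%. Those that included 1 were of Cct8l1, Dnajc15, Dnajc24 and Dnajc4 for Mettl3, and of Dnajb5, Dnajc17, Dnajc4 and Dnajc6 for Zfp217. These intervals cover counting error in 1 library of each kind, not the spread between cultures. They also take no account of the listing limit of 1.5-fold, which keeps every listed fold above 1. Fragments behind a member's RIP value ranged from about 6.88 to 1019 in the Mettl3 RIP and from about 3.80 to 816 in the Zfp217 RIP, so the folds of the long, abundant members are the firmest.

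**Figure D2:**
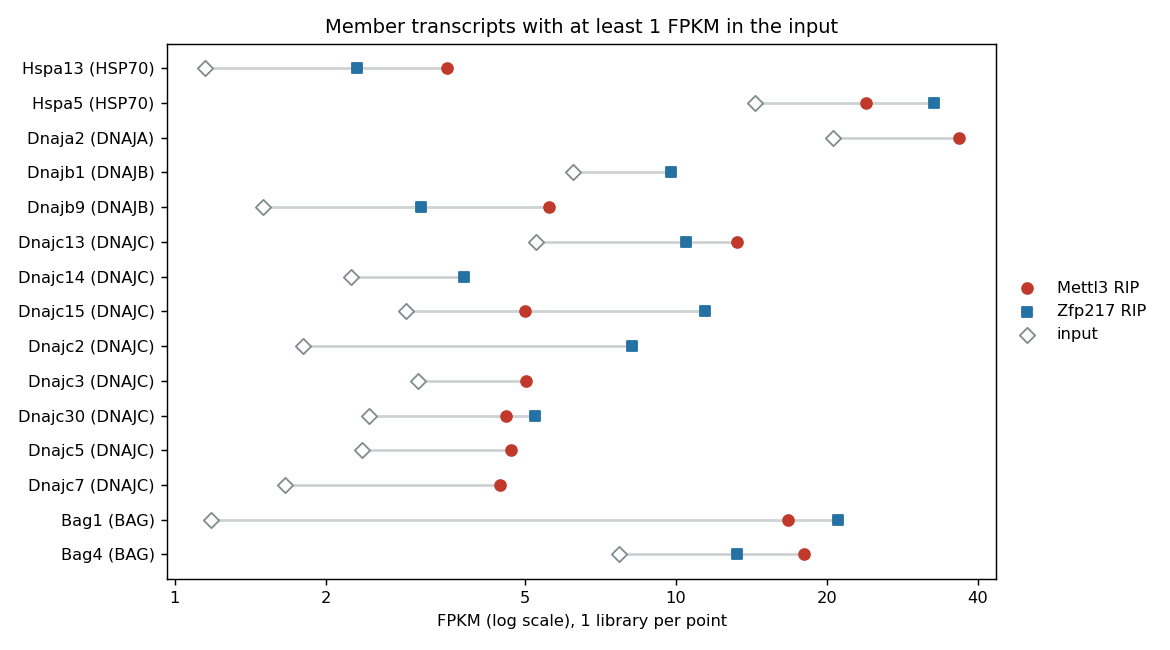
FPKM (log axis, 1 library per point) of the 15 member transcripts with at least 1 FPKM in the input. Filled circles are the Mettl3 RIP, squares the Zfp217 RIP and open diamonds the input; a missing symbol means that the table did not list the transcript. Bag1 has the widest gap, with 16.7 and 20.98 FPKM in the RIPs and 1.18 in the input.

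Bag1 held the largest fold of the members in each table. This nucleotide exchange factor of HSP70 (chromosome 4 from 40936398 to 40948294, minus strand), was at 16.7 FPKM in the Mettl3 RIP, against 1.18 in the input, a RIP to input ratio of 14.1 with an interval of 7.24 to 34.2. In the Zfp217 RIP Bag1 was at 20.98 FPKM, against 1.21 in the input, a RIP to input ratio of 17.3 (8.98 to 42.6). The input value of Bag1 rests on only about 8.26 fragments, and it is the divisor of both folds. Bag4, which restrains death receptor signalling (chromosome 8 from 25764538 to 25785287, minus strand), was at 17.99 FPKM in the Mettl3 RIP, against 7.68 in the input (2.34-fold, 2.01 to 2.73). In the Zfp217 RIP Bag4 was at 13.2 FPKM, against 7.76 in the input (1.70-fold, 1.44 to 2.01). Bag6, which guides tail-anchored proteins and misfolded clients, was at 1.34 FPKM in the Mettl3 RIP and 1.09 in the Zfp217 RIP, with an input of 0. The input of Bag4 was thus well above that of Bag1, while in the RIPs Bag4 was the higher for Mettl3 and Bag1 for Zfp217. Of the Bag4 transcript, 21.4% overlaps exons of the antisense gene Gm17484, and the authors' counting is not stated to use strand.

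The HSP70 genes listed were those of the endoplasmic reticulum. Hspa5, known as BiP, the main HSP70 of that compartment (chromosome 2 from 34771970 to 34777547, plus strand), was at 23.9 FPKM in the Mettl3 RIP, against 14.4 in the input, a RIP to input ratio of 1.66 (1.45 to 1.90). In the Zfp217 RIP Hspa5 was at 32.7 FPKM, against 14.5 in the input, a RIP to input ratio of 2.25 (1.97 to 2.58). It had the highest Zfp217 RIP value of all members. Hspa13, a microsomal HSP70-like protein, was at 3.50 FPKM in the Mettl3 RIP, against 1.15 in the input (3.04-fold, 2.04 to 4.80), and at 2.31 FPKM in the Zfp217 RIP, against 1.16 in the input (1.99-fold, 1.29 to 3.27). The 2 genes lay in opposite order for the antibodies, Hspa5 higher in the Zfp217 RIP and Hspa13 higher in the Mettl3 RIP. Hsph1, an HSP110 exchange factor, was at 3.96 FPKM in the Mettl3 RIP, against 0.90 in the input (4.40-fold, 2.61 to 7.72), and at 2.41 FPKM in the Zfp217 RIP, against 0.91 in the input (2.65-fold, 1.51 to 4.86).

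Among CCT subunits, Tcp1 (subunit alpha of the ring; chromosome 17 from 12915701 to 12925067, plus strand) was at 11.3 FPKM in the Mettl3 RIP, against 0.85 in the input, a RIP to input ratio of 13.2 (7.37 to 25.7). In the Zfp217 RIP Tcp1 was at 7.50 FPKM, against 0.86 in the input, a RIP to input ratio of 8.73 (4.75 to 17.1). The input held about 11.9 fragments of this transcript, ENSMUST00000151287, 1 of 12 annotated for the gene. It is 2446 bases long, and 571 of these bases (23.3%) overlap exons of the antisense gene Acat3. The counting is not stated to use strand, and the part of Acat3 reads in the values was not tested. Cct3 was at 1.29 FPKM in the Mettl3 RIP and 3.18 in the Zfp217 RIP, and Cct5 at 2.15 FPKM in the Zfp217 RIP, all against an input of 0. Cct8l1, a gene related to Cct8, was at 1.34 FPKM in the Mettl3 RIP, against 0.80 in the input, a RIP to input ratio of 1.67 with an interval of 0.74 to 4.02 that includes 1.

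Of the small heat shock proteins, Hspb6 (Hsp20) was at 1.55 FPKM in the Mettl3 RIP and Hspb9 at 1.20 FPKM in the Zfp217 RIP, each against an input of 0. The Hspb9 value rests on about 4.98 fragments, so it is close to the limit of what this depth shows. The other 6 genes of this subfamily were listed in neither table.

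Among DNAJA and DNAJB genes, Dnaja2, a cytosolic partner of HSP70, had the highest Mettl3 RIP value of all members, at 36.6 FPKM, against 20.5 in the input (1.79-fold, 1.58 to 2.03). It was not listed for Zfp217; if the listing followed the limits above, its value there was under 31.1 FPKM. Dnajb9, a J protein of the endoplasmic reticulum that works with BiP, was at 5.58 FPKM in the Mettl3 RIP, against 1.5 in the input (3.72-fold, 2.34 to 6.23), and at 3.10 FPKM in the Zfp217 RIP, against 1.52 in the input (2.05-fold, 1.22 to 3.60). Dnajb1, the classical Hsp40 of the heat shock response, was listed through a different transcript in each table. ENSMUST00000171746 was at 4.38 FPKM in the Mettl3 RIP, against 0 in the input, and ENSMUST00000005620 at 9.75 FPKM in the Zfp217 RIP, against 6.23 in the input (1.57-fold, 1.24 to 2.01). The gene is shared by the tables, but no transcript of it is.

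The remaining DNAJB members were low. Dnajb12, a J protein of the endoplasmic reticulum membrane, was listed by ENSMUST00000147914 at 1.82 FPKM in the Mettl3 RIP and 2.99 in the Zfp217 RIP, and by ENSMUST00000020309 at 2.04 FPKM in the Zfp217 RIP alone, all against 0 in the input. Dnajb6, which keeps polyglutamine proteins from aggregating, was at 1.32 and 1.12 FPKM in the Mettl3 and Zfp217 RIPs, against 0. Dnajb14, a relative of Dnajb12, was at 1.78 FPKM in the Mettl3 RIP, against 0.51 in the input (3.48-fold, 2.32 to 5.34). Dnajb4 was at 1.23 FPKM in the Zfp217 RIP, against 0.45 in the input, and Dnajb5 at 1.58, against 0.97. The interval of Dnajb4 was 1.09 to 8.59 and that of Dnajb5 0.77 to 3.34, so only the first lay above 1.

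In the DNAJC class the highest Mettl3 RIP value was that of Dnajc13 and the highest Zfp217 RIP value that of Dnajc15. Dnajc13 is an endosomal J protein (gene on chromosome 9 from 104151282 to 104262930, minus strand) whose listed transcript of 8012 bases was among the longest of the members. It was at 13.2 FPKM in the Mettl3 RIP, against 5.25 in the input (2.52-fold, 2.19 to 2.90), and at 10.4 FPKM in the Zfp217 RIP, against 5.31 in the input (1.97-fold, 1.69 to 2.29). With about 1019 and 580 fragments in the Mettl3 and Zfp217 RIPs, its intervals were among the narrowest. Dnajc15, a J protein of the mitochondrial inner membrane (chromosome 14 from 77820681 to 77875125, minus strand), was at 5.01 FPKM in the Mettl3 RIP, against 2.90 in the input (1.73-fold, 0.81 to 4.32). In the Zfp217 RIP Dnajc15 was at 11.4 FPKM, against 2.93 in the input (3.89-fold, 1.95 to 9.44). This transcript of 674 bases is protein_coding in the tables and a nonsense-mediated decay target in the later annotation. Dnajc30, also mitochondrial, was at 4.58 FPKM in the Mettl3 RIP, against 2.44 in the input (1.88-fold), and at 5.23 FPKM in the Zfp217 RIP, against 2.47 in the input (2.12-fold).

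Other DNAJC genes with at least 1 FPKM in the input were in 1 table. Dnajc2, a ribosome-bound J protein that also binds chromatin, was at 8.18 FPKM in the Zfp217 RIP, against 1.80 in the input, a RIP to input ratio of 4.54 (2.79 to 7.72). It was not listed for Mettl3, where the limits would put it under 2.67 FPKM. Dnajc14, of the endoplasmic reticulum membrane, was at 3.78 FPKM in the Zfp217 RIP, against 2.25 in the input (1.68-fold). In the Mettl3 table alone were Dnajc3, an inhibitor of stress kinases in the endoplasmic reticulum, at 5.03 FPKM against 3.06 in the input (1.64-fold, 1.28 to 2.10), and Dnajc5, a chaperone of synaptic and secretory vesicles, at 4.68 against 2.36 (1.98-fold, 1.56 to 2.53). A Dnajc7 transcript was at 4.45 FPKM in the Mettl3 RIP, against 1.66 in the input (2.67-fold, 1.17 to 8.50), and another of that gene at 3.39 FPKM, against 0. Of the first of these, 26.2% overlaps exons of the antisense genes Cnp and Nkiras2, and the counting is not stated to use strand. Dnajc7 is a cochaperone that binds HSP70 and HSP90; the limits would put its first transcript under 2.52 FPKM in the Zfp217 RIP.

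The last DNAJC members had inputs under 1 FPKM. Dnajc6, the auxilin that strips clathrin from vesicles, had ENSMUST00000106930 in both tables, at 2.61 FPKM in the Mettl3 RIP and 2.10 in the Zfp217 RIP, against 0 in the input. Its transcript ENSMUST00000106929 was in the Mettl3 table alone, at 1.86 FPKM in the RIP, against 0 in the input. A further transcript, ENSMUST00000149047, was in the Zfp217 table alone, at 1.17 FPKM in the RIP, against 0.46 in the input, with an interval that included 1. Dnajc21 was at 1.80 and 1.44 FPKM in the Mettl3 and Zfp217 RIPs, Dnajc11 at 1.54 and 1.18, and Dnajc4 at 2.14 and 1.64, against inputs of 0 for Dnajc11 and of 0.86 and 0.87 for Dnajc4. The Dnajc21 transcript is protein_coding in the tables and a processed transcript in the later annotation. Dnajc24, which takes part in diphthamide synthesis, was at 2.35 FPKM in the Mettl3 RIP, against 0.95 in the input, and a different transcript was at 2.51 FPKM in the Zfp217 RIP, against 0.79 in the input. Dnajc18, Dnajc25 and Dnajc27 were in the Mettl3 table alone, at 3.08, 1.10 and 1.05 FPKM, and Dnajc17 in the Zfp217 table alone at 1.77 FPKM, against 0.76 in the input. Dnajc18 was 3.10-fold higher (2.09 to 4.76) than its input of 0.99 FPKM.

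**Figure D3:**
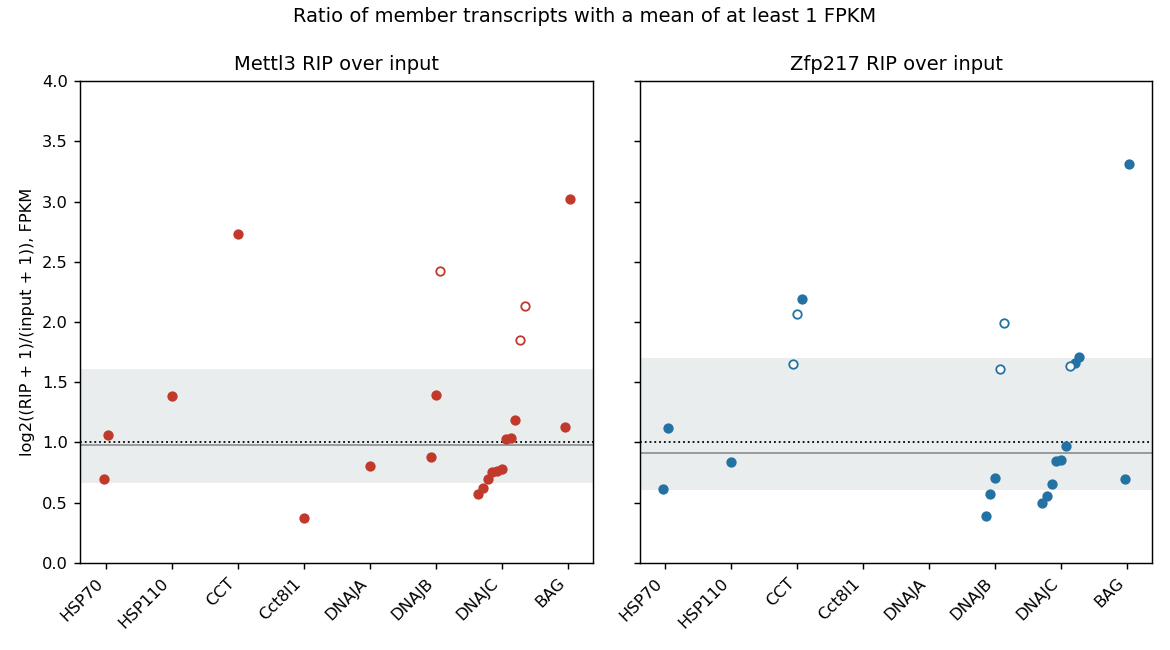
Log2 ratio of RIP over input, with 1 FPKM added to each value, for the 22 members per table with a mean of at least 1 FPKM, by subfamily. Open circles had an input under 0.01 FPKM, the dotted line marks 2-fold, and the grey line and band are the median and quartiles of all protein_coding transcripts. Bag1 and Tcp1 stand above the band in each panel.

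The RIPs were also set directly against each other for the 18 member transcripts listed in both tables. Their median log2 ratio of Mettl3 RIP over Zfp217 RIP was 0.21, beside 0.08 (quartiles -0.22 and 0.40) for all 2813 protein_coding transcripts in both tables. Of the 18, 12 were higher in the Mettl3 RIP and 6 in the Zfp217 RIP, where 57.7% of all such transcripts were higher in the Mettl3 RIP. Of 17 with an interval, 6 lay above 1 and 5 below. The matching shares over all shared transcripts are not given here, so these counts are not read as a trait of the members.

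Furthest to the Mettl3 side was Dnajb9, at 5.58 FPKM in the Mettl3 RIP, against 3.10 in the Zfp217 RIP, 1.80-fold higher (1.29 to 2.53). It was followed by Hsph1 (3.96 against 2.41 FPKM; 1.64-fold, 1.17 to 2.30), Tcp1 (11.3 against 7.50; 1.5-fold, 1.21 to 1.88), Hspa13 (3.50 against 2.31; 1.51-fold, 1.12 to 2.05) and Bag4 (17.99 against 13.2; 1.36-fold, 1.21 to 1.53). The intervals of these 5 overlap one another, so their order is not fixed by the counts. They come from 5 subfamilies. For Tcp1 the ratio is that of the protein_coding transcript only. A retained-intron transcript of the gene, ENSMUST00000138709, went the other way, at 4.97 against 16.1 FPKM (0.31, 0.20 to 0.48).

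Furthest to the Zfp217 side was Dnajc15, at 5.01 FPKM in the Mettl3 RIP, against 11.4 in the Zfp217 RIP, a ratio of 0.44 (0.26 to 0.73). Next was Cct3, at 1.29 against 3.18 FPKM, with a ratio of 0.41 (0.24 to 0.71), placed after Dnajc15 because 1 FPKM was added to each value. Dnajb12 (1.82 against 2.99 FPKM; 0.61, 0.42 to 0.90), Hspa5 (23.9 against 32.7; 0.73, 0.66 to 0.81) and Bag1 (16.7 against 20.98; 0.79, 0.64 to 0.99) completed the list. Hspa5 and its J protein partner Dnajb9, both of the endoplasmic reticulum, stood on opposite sides. Only 1 library per antibody stands behind each ratio.

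**Figure D4:**
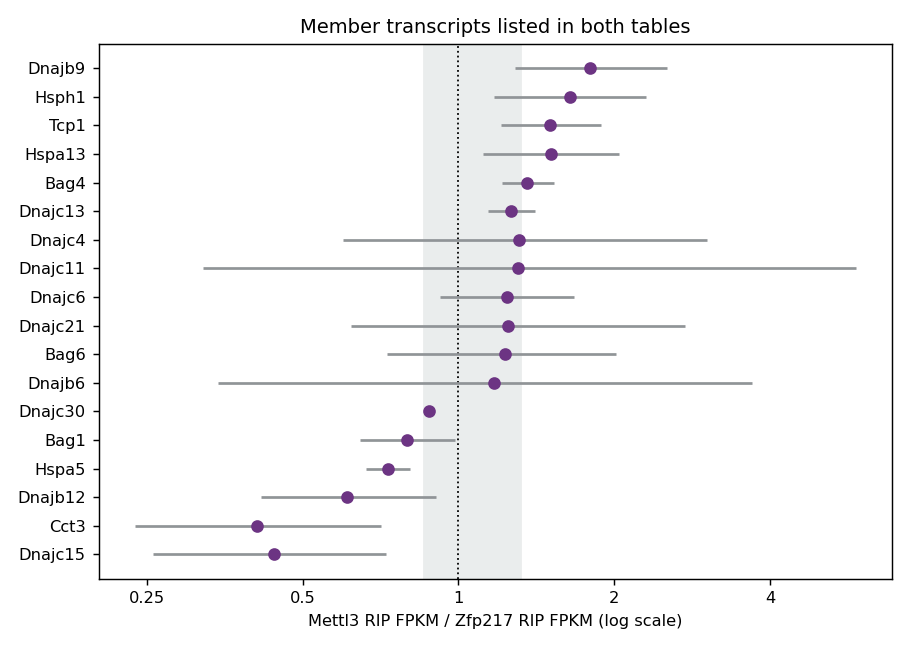
Ratio of Mettl3 RIP to Zfp217 RIP FPKM (log axis) for the 18 member transcripts in both tables, with 95% counting intervals as lines; Dnajc30 has no annotated length and no interval. The grey band spans the quartiles of all 2813 shared protein_coding transcripts, which were taken with 1 FPKM added, while the points are plain ratios. Transcripts are ordered by the log2 ratio with 1 FPKM added, from Dnajb9 at a plain ratio of 1.80 at the top to Dnajc15 at 0.44 at the bottom, while the lowest plain ratio is that of Cct3 at 0.41.

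Other chaperone genes, outside the Hsp, Dnaj, Cct and Bag names, were listed for 17 of 47 (36.2%) in each table, beside 21.3% of all annotated protein-coding genes for Mettl3 and 17.3% for Zfp217. In both tables were 12 of the 47, beside 12.5% (2742 of 21911) of all annotated protein-coding genes. These 12 were out of 17 listed in each table. Of all annotated protein-coding genes in the Mettl3 and Zfp217 tables, 58.7% and 72.3% were in both. Clpb, Clpx, Hsf1, Hsf2, Pfdn4 and Tomm70a had no transcript in common between the tables. The tables share the input library, so no more is read from this overlap either. With a mean of at least 1 FPKM, 8 of 18 transcripts in the Mettl3 table and 7 of 14 in the Zfp217 table were at least 2-fold higher, beside the 48.4% and 45.2% above. Ptges3 (p23, a cochaperone of HSP90) was the most abundant. Its transcript ENSMUST00000084771 was at 88.0 FPKM in the Mettl3 RIP, against 20.02 in the input, and at 41.9 in the Zfp217 RIP, against 20.2 in the input. Its transcript ENSMUST00000052798 was at 41.8 in the Mettl3 RIP, against 25.9 in the input, and at 87.7 in the Zfp217 RIP, against 26.2 in the input. The order of the transcripts was thus reversed between antibodies, while their sum was 129.8 FPKM in the Mettl3 RIP and 129.6 in the Zfp217 RIP. These values also depend on how reads were shared out between the transcripts of the gene. Whether the reversal goes beyond that was not tested.

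Vbp1, a subunit of prefoldin, which hands clients to CCT, was at 48.9 FPKM in the Mettl3 RIP, against 15.0 in the input (3.25-fold, 2.70 to 3.95), and was not listed for Zfp217. St13, a cochaperone of HSP70, was at 45.1 FPKM in the Mettl3 RIP, against 19.4 in the input (2.33-fold, 2.08 to 2.61), and at 29.97 in the Zfp217 RIP, against 19.6 in the input (1.53-fold, 1.34 to 1.74). Hsf1, the main transcription factor of the heat shock response, was at 4.40 FPKM in the Mettl3 RIP, against 1.83 in the input (2.41-fold), and a different transcript was at 2.22 FPKM in the Zfp217 RIP, against 0 in the input. Trap1, the HSP90 relative outside the rule, was at 18.5 FPKM in the Zfp217 RIP and was not listed for Mettl3. Its input was 0.0072 FPKM, under the limit of 0.01, so no fold is given.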

How the data were processed

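RIP-seq of 3 libraries (Mettl3 RIP, Zfp217 RIP and input, 1 each) was grouped by title and antibody label. The authors deposited 2 tables of FPKM per Ensembl transcript; their deposited log2 ratio column, which holds a code for infinity where the input is 0, was not used. The submitters' processing notes name TopHat2 2.0.8, Bowtie2, Cuffdiff, Cufflinks, CASAVA 1.4 and the build mm9; settings and roles: not given in the sources used here.

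Ratios were log2((RIP + 1)/(input + 1)) for transcripts with a mean of at least 1 FPKM, and at least 2-fold was the rule of size. Plain folds needed an input of at least 0.01 FPKM. Depth was estimated from noncoding transcripts of 95 to 600 bases in genes with 1 transcript: a fragment length of 141 ± 34 bases (mean and SD) and the depths above made 70.5% to 86.9% of values under 10 fragments whole, within 0.06 of a whole number. Exact 95% conditional binomial intervals used estimated fragments rounded to whole numbers, and cover counting error only. The depth step and the intervals were tested only on data simulated under their own models, with every fragment number whole. Such data cannot show whether those models hold for the deposited values. Lengths, overlaps and coordinates came from GENCODE M21 (GRCm38), which held 88.3% and 88.8% of the Mettl3 and Zfp217 transcripts. Python 3.11.15, SciPy 1.17.1 and pandas 2.3.3 were used. The same input library had values in the Mettl3 table that were lower than its Zfp217 table values by a factor of 0.989. Named transcripts were those with at least 1 FPKM in RIP and input, the highest RIP of each subfamily, and the 5 furthest apart each way between antibodies; all other members are given by their values. Members, lists and rules were chosen with earlier results of these data known.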

Additional observations from a re-analysis of the deposited data

Results flagged for a closer look

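Rows outside the protein_coding class were not part of the comparisons, yet some of them had at least 1 FPKM in both RIP and input. In the Mettl3 table the RIP was 2.21-fold above the input for a Bag6 retained intron, 1.86-fold for a Dnaja1 processed transcript, 1.76-fold for a Dnajc7 processed transcript and 1.75-fold for a Tcp1 retained intron. In the Zfp217 table it was 5.60-fold above for the same Tcp1 retained intron, 2.44-fold for a Dnajc11 retained intron, 2.01-fold for the same Dnajc7 processed transcript and 1.93-fold for an Hspa8 retained intron. The Tcp1 retained intron was at 4.97 FPKM in the Mettl3 RIP and 16.1 in the Zfp217 RIP, while the protein_coding Tcp1 transcript was at 11.3 and 7.50. Whether the 2 Tcp1 transcripts differ between antibodies beyond replicate spread was not tested, since each antibody had 1 library.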

How the results depend on the processing

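Each group had 1 library, so none could be left out. No paired analysis was possible because no group had a second sample. Of the counts, 12 members reaching 2-fold for Mettl3 became 20 of 32 with no filter on low values, 20 of 34 over every transcript class and 6 of 12 with at least 1 FPKM in RIP and input. For Zfp217, 10 became 5 of 17 with an input of at least 0.01 FPKM, 4 of 11 with at least 1 FPKM in both, and 19 of 33 over every class. Over all listed transcripts of every class, 51.1% for Mettl3 and 49.1% for Zfp217 reached 2-fold. With at least 1 FPKM in the input, 34.5% and 20.7% of all protein_coding transcripts did. The shares over all transcripts with no filter or with an input of at least 0.01 FPKM are not given here. The median log2 ratio of 1.03 for Mettl3 was 1.34 with 0.1 FPKM added, 1.16 with no filter, 0.88 with an input of at least 0.01 FPKM and 0.92 with at least 1 FPKM in both. The Zfp217 median of 0.91 was 1.24 with 0.1 FPKM added, 1.06 with no filter and 1.38 over every class. Of the 20 genes in both tables, 8 were left with an input of at least 1 FPKM, and 18 had the same transcript in both. Fewer transcripts enter by construction under the stricter filters; for the other settings the cause was not tested. No median changed sign, which the tables' own limit fixes for the ratios over input. Depth limits the short or low members most: 2 members in the Mettl3 RIP and 4 in the Zfp217 RIP rest on fewer than 10 fragments.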
